A study of Mus musculus with 9 samples.

Results

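Livers of mice at 4 weeks and at 2 weeks after bile duct ligation were compared through the RNA of cells sorted as lymphatic endothelium, to describe which genes differed between the later and the earlier stage of the same injury. The comparison took in 6 of the 9 libraries of the study, 3 from mice ligated for 4 weeks and 3 from mice ligated for 2 weeks. Its genes were those that averaged 10 or more normalized counts over these 6 libraries, which were 11718 of the 21936 protein-coding genes in the table, and 10218 genes lay under that mean. No gene entered the comparison for its difference between the 2 times, but many of the genes named below were picked by their p in it. All mice, the sham-operated ones included, carried the IL7GFP/knock-in reporter, in which green fluorescent protein is made from the Il7 locus to mark lymphatic endothelium, so they differ from wild type in the same way at every stage. Per the labels' protocols, between 20000 and 50000 cells per sample were collected in TRIzol and the libraries were depleted of ribosomal RNA. The sources used here give neither the sorting gate nor the sex and age of the mice nor the time between sham surgery and collection. The sham libraries did not enter the comparison and are quoted only beside a few genes.

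Ligation of the common bile duct stops bile from leaving the liver. Bile acids then injure hepatocytes, bile ducts proliferate, leukocytes are drawn in and scar matrix is laid down. Lymphatic vessels drain the fluid and the immune cells of the portal tracts, and their endothelium depends on the transcription factor Prox1 and on VEGF-C signalling through the receptor Flt4. Kupffer cells are the resident macrophages of the liver sinusoids and carry receptors for uptake such as Marco and Timd4, whereas macrophages that arrive from blood monocytes carry other receptors and enzymes.

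The 3 libraries from 4 weeks did not form one group. Whole reads recovered from the normalized counts numbered 4399759, 3010049 and 2259239 at 4 weeks (replicates 1, 2 and 3, the order used throughout), against 5314381, 4450196 and 4366401 at 2 weeks. Across the genes tested, 4-week replicate 1 correlated at 0.887 and 0.889 with the other 4-week libraries and at 0.925 to 0.937 with the 2-week libraries, whereas 4-week replicates 2 and 3 correlated at 0.953 with each other (Pearson's r of log2 levels across genes, which are not independent). On the first axis of a principal component analysis, which carried 46.6% of the variance, 4-week replicate 1 lay at 64.5, replicates 2 and 3 of 4 weeks lay at −44.7 and −46.1, and those of 2 weeks lay between 7.03 and 9.75. The median standard deviation of a gene on the log2 scale was 0.412 among the 4-week libraries and 0.263 among the 2-week libraries, but 0.201 between 4-week replicates 2 and 3. At a common depth of 2259239 reads, the number of genes with at least 1 read was 15487, 17942 and 19299 at 4 weeks, against 16550, 14952 and 16020 at 2 weeks.

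At 472 genes, 4-week replicate 1 lay more than 2-fold below each of the 5 other libraries, and at 57 genes it lay more than 2-fold above them. The count below ranged from 23 to 56 for the other libraries taken in turn, and the count above from 3 to 95. Among the genes with the widest gap below were Sec14l2, Bhmt, Saa1, Reep6, Tdo2, Fbp1, Orm2, Saa2 and Gstz1, which include enzymes of amino acid and sugar metabolism and acute-phase proteins that hepatocytes make. Bhmt, an enzyme of methionine metabolism, stood at 52.6, 1257 and 557 normalized counts at 4 weeks, against 1005, 346 and 530.0 at 2 weeks. It was lowest in 4-week replicate 1, while replicates 2 and 3 lay above the middle 2-week value. The 10 genes with the widest gap above were Sorl1, Mkrn1, Tnfrsf26, Nfil3, Gda, Tbc1d15, St8sia4, Cxcr4, Clec4d and Stap1. Cxcr4, the receptor of the chemokine CXCL12, stood at 974, 338 and 369 normalized counts at 4 weeks, against 357, 387 and 353 at 2 weeks. Clec4d, a lectin of myeloid cells, stood at 953, 227 and 381 normalized counts at 4 weeks, against 183, 221 and 294 at 2 weeks. At both, 4-week replicate 1 was more than 2-fold above each of the other libraries, whose values at Cxcr4 were close together.

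**Figure D1:**
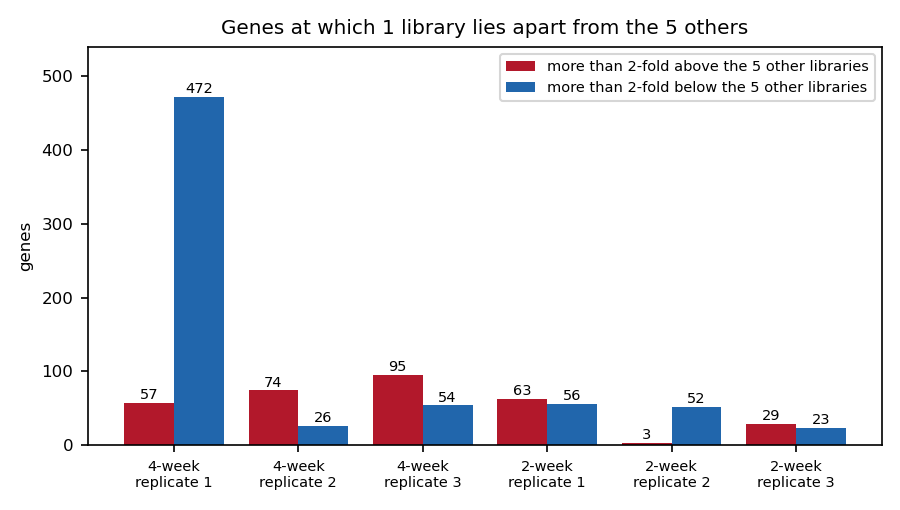
Number of the 11718 genes tested at which each library lies more than 2-fold above (red) or below (blue) every one of the 5 others, on a linear axis. The 472 genes below all others in 4-week replicate 1 stand against 23 to 56 in the other libraries.

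Defining markers of lymphatic endothelium were present in all 6 libraries, but not evenly. Prox1 stood at 444, 1637 and 1675 normalized counts at 4 weeks, against 734, 1659 and 994 at 2 weeks. Flt4 stood at 2690.1, 5545 and 5186 normalized counts at 4 weeks, against 2069, 5808 and 3908 at 2 weeks. Il7, the locus of the reporter, stood at 18.8, 56.4 and 55.4 normalized counts at 4 weeks, against 30.6, 69.2 and 52.8 at 2 weeks. At all 3 genes, the lowest library was 4-week replicate 1 or 2-week replicate 1, and the times overlapped. Lyve1, which binds hyaluronan on lymphatic vessels and sinusoids, stood at 4481, 5379.6 and 8146 normalized counts at 4 weeks, against 1701, 6906 and 5497 at 2 weeks. Pdpn, a membrane mucin of lymphatic endothelium, stood at 78.5, 241 and 287 normalized counts at 4 weeks, against 131, 252 and 158 at 2 weeks. Pecam1, an adhesion molecule of all endothelia, stood at 958, 1470.2 and 1635 normalized counts at 4 weeks, against 928, 1853 and 1377 at 2 weeks. In these, too, the spread within a time was wider than the difference between the times. Cdh5, the cadherin of endothelial junctions, stood at 1641, 2623 and 2476 normalized counts at 4 weeks, against 3029, 3081 and 2798 at 2 weeks, and every 4-week library was below every 2-week library. Stab2, a scavenger receptor of sinusoidal endothelium, stood at 401, 1343 and 669 normalized counts at 4 weeks, against 970.1, 1237 and 945 at 2 weeks.

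Markers of other liver cells were also present in each library. Alb of hepatocytes stood at 599, 10318 and 7139 normalized counts at 4 weeks, against 4566, 1981 and 5054 at 2 weeks. Col1a1 of fibroblasts stood at 257, 672 and 1109 normalized counts at 4 weeks, against 1272, 334 and 598 at 2 weeks. Ptprc, which encodes the leukocyte antigen CD45, stood at 2152, 894 and 753 normalized counts at 4 weeks, against 1918, 1109.9 and 1577 at 2 weeks. The libraries of 4 weeks differed among themselves in opposite ways, with replicate 1 low in Alb and Col1a1 and high in Ptprc. Krt19 of bile ducts stood at 23.5, 46.6 and 41.8 normalized counts at 4 weeks, against 36.5, 22.9 and 68.4 at 2 weeks. S100a8 of neutrophils stood at 22.8, 9.85 and 19.7 normalized counts at 4 weeks, against 8.84, 17.0 and 88.0 at 2 weeks. Both of these overlapped between the times. The part of these other cells in the differences described here was not tested.

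With all 6 libraries, whether any gene was called between 4 and 2 weeks depended on the test. In limma, an empirical Bayes linear model, 0 genes were higher and 0 lower at an adjusted p below 0.05 over all 11718 genes (0.0% called in each direction), and the lowest adjusted p was 0.0931. At an unadjusted p below 0.05, 222 genes were higher (1.89%) and 422 lower (3.6%) at 4 weeks. The 4-week and 2-week libraries did not overlap at 515 genes that were higher (4.39%) and 592 that were lower (5.05%). The quasi-likelihood test of edgeR on the recovered reads also called 0 genes, with 242 higher and 426 lower at an unadjusted p below 0.05, and DESeq2 called 31 higher and 67 lower.

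The genes with the lowest p in limma in this comparison did not pass there, and their values are given as such. Here and below, passing refers to limma unless another test is named. Gbp2b (ENSMUSG00000040264, chromosome 3, 142594847 to 142619179 of GRCm38), an interferon-induced GTPase, stood at 14.1, 8.95 and 6.15 normalized counts at 4 weeks, against 272, 114 and 132 at 2 weeks. All 4-week libraries lay far below all 2-week libraries (log2 fold change −3.97 ± 0.41, SE; adjusted p in limma 0.0931). Slc16a9, a carrier of the monocarboxylate transporter family, stood at 35.3, 41.2 and 41.8 normalized counts at 4 weeks, against 183, 132 and 191 at 2 weeks. The 4-week values were nearly equal, and each was under a 2-week value several times as large (−2.05 ± 0.23; adjusted p in limma 0.0931). Timd4 (ENSMUSG00000055546, chromosome 11, 46810800 to 46844332 of GRCm38), a receptor for phosphatidylserine on Kupffer cells, stood at 141, 65.4 and 40.6 normalized counts at 4 weeks, against 1263, 549 and 1150.0 at 2 weeks. Its groups did not overlap, and the fitted fold of 4 over 2 weeks was 0.0787 (adjusted p in limma 0.155). Cd300e, an activating receptor of monocytes, stood at 51.8, 40.3 and 33.2 normalized counts at 4 weeks, against 312, 134 and 325 at 2 weeks. Epb41l3, a protein of the membrane skeleton, stood at 164, 107 and 103 normalized counts at 4 weeks, against 759, 373 and 437 at 2 weeks. Other genes of the lowest p on this side were the potassium channel subunit Kcnj16, the inhibitory lectin Siglece, Ccdc148 and the scavenger receptor Colec12. None of these genes overlapped between the times, against 5.05% of all genes without overlap on this side. They were picked by their p in this comparison, so the lack of overlap is no separate result. The log2 fold changes of the last 4 lay between −3.25 for Kcnj16 and −1.29 for Colec12.

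On the higher side, Ccr1 (ENSMUSG00000025804, chromosome 9, 123962124 to 123968692 of GRCm38), a chemokine receptor of myeloid cells, stood at 443, 408 and 409.7 normalized counts at 4 weeks, against 141, 147 and 157 at 2 weeks. Both groups were tight and far apart (1.49 ± 0.18; adjusted p in limma 0.119), and the sham libraries stood at 33.9, 10.5 and 24.1. Adam8 (ENSMUSG00000025473, chromosome 7, 139978932 to 139992562 of GRCm38), a membrane metalloprotease of leukocytes, stood at 1441, 976 and 1164 normalized counts at 4 weeks, against 497, 348 and 289.7 at 2 weeks, or 1194 ± 234 at 4 weeks and 378 ± 107 at 2 weeks (mean ± SD of 3 libraries). Pf4, a chemokine stored in platelets and also made by macrophages, stood at 291, 259.7 and 288 normalized counts at 4 weeks, against 124, 76.4 and 108 at 2 weeks. Every 4-week library lay above every 2-week library at both genes. Vegfa (ENSMUSG00000023951, chromosome 17, 46016993 to 46032369 of GRCm38), the growth factor of blood vessel endothelium, stood at 1545, 1232 and 1125 normalized counts at 4 weeks, against 679.5, 627 and 482 at 2 weeks, or 1301 ± 218 at 4 weeks and 596 ± 102 at 2 weeks (mean ± SD of 3 libraries). Its 4-week libraries were all above the highest 2-week value, 4-week replicate 1 included (1.13 ± 0.24; adjusted p in limma 0.376). Cd93, a glycoprotein of endothelial and myeloid cells, stood at 1836, 1393 and 1723 normalized counts at 4 weeks, against 741, 754 and 438 at 2 weeks. Lhfpl2 stood at 405, 372 and 393 normalized counts at 4 weeks, against 134, 193 and 160.4 at 2 weeks. The other genes of the lowest p on this side were the semaphorin receptor Plxnc1, the actin regulator Eps8, the growth factor Igf2 and Slc16a1, a lactate carrier. None of these 10 genes overlapped between the times either, against 4.39% of all genes without overlap on this side. They, too, were picked by their p in this comparison. The log2 fold changes of the last 4 lay between 1.23 for Eps8 and 1.92 for Igf2.

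**Figure D2:**
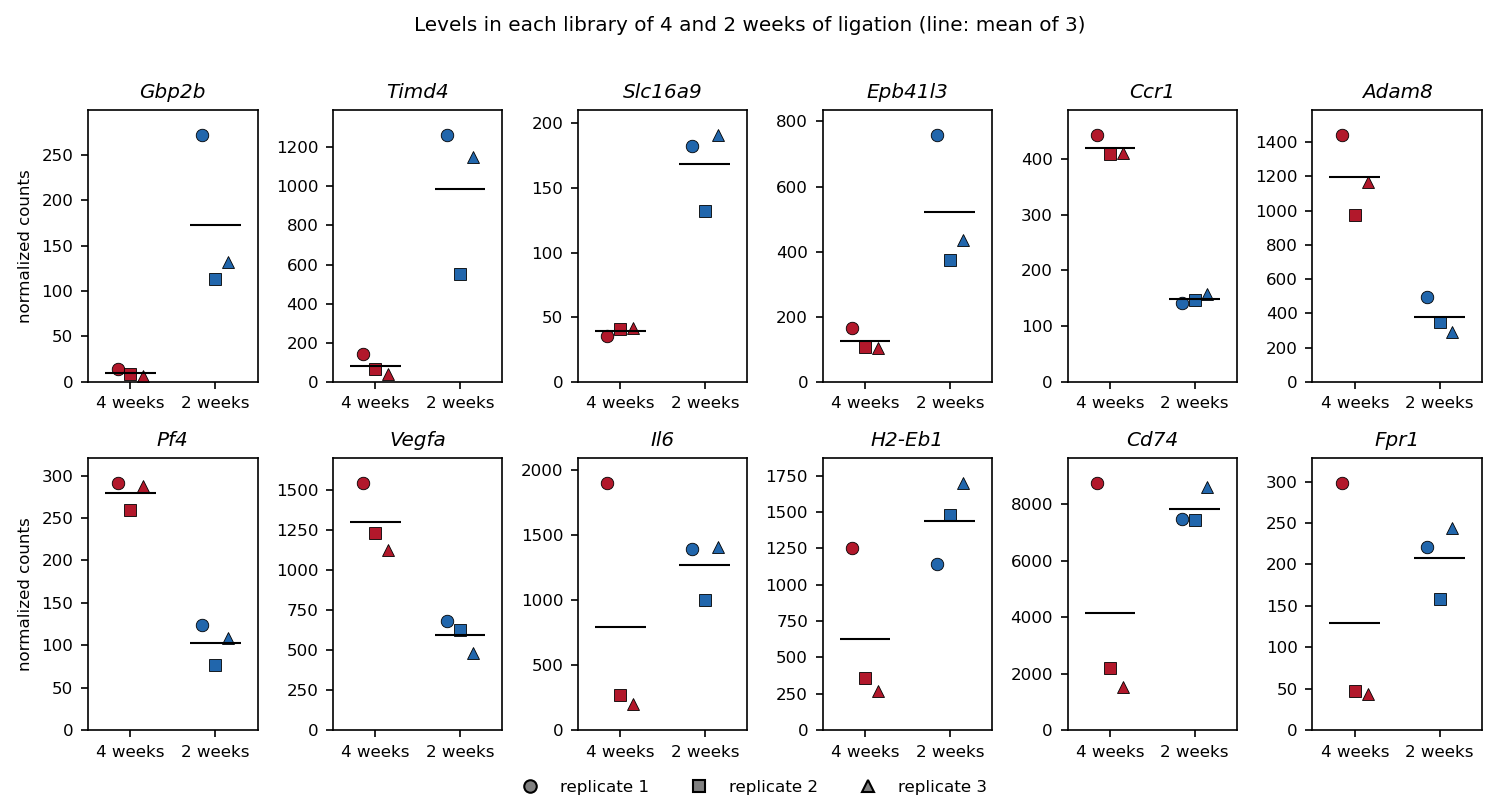
Normalized counts of 12 genes in each library of 4 weeks (red, left) and 2 weeks (blue, right), on linear axes from 0, with the symbol showing the replicate number and the line the mean of 3 libraries. At Gbp2b, Timd4, Slc16a9, Epb41l3, Ccr1, Adam8, Pf4 and Vegfa the libraries of 4 weeks and of 2 weeks do not overlap, whereas at Il6, H2-Eb1, Cd74 and Fpr1 the circle of 4-week replicate 1 stands among or above the 2-week libraries.

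Without 4-week replicate 1, with 2 libraries against 3 and the same 11718 genes, 14 genes rose (0.119%) and 103 fell (0.879%) at 4 weeks against 2 weeks in limma at an adjusted p below 0.05, and 903 (7.71%) and 1299 (11.1%) had an unadjusted p below 0.05. These calls rested on the test used. With edgeR 0 genes passed, at a lowest adjusted p of 0.0578 and with 944 higher and 1196 lower at an unadjusted p below 0.05, and 0 passed in limma when the sham libraries shared the fit. With 1 more library left out, 0 genes passed in either direction without 4-week replicate 2, without 4-week replicate 3 or without 2-week replicate 3. Without 2-week replicate 1 the counts were 61 higher and 145 lower, and without 2-week replicate 2 they were 141 and 389. DESeq2 called 218 higher and 467 lower, which held all 14 and all 103 genes called in limma, or 6.42% and 22.1% of its own calls. Log2 fold changes of the genes that fell ran from −4.25 to −0.99 with a median of −1.64. Those of the genes that rose ran from 1.01 to 3.75 with a median of 1.72. The highest of these, from 3.67 to 3.75, belonged to 4 predicted models whose levels are uncertain, and the next was 2.20 for Igf2. Over all genes tested the median was 0.02 with and 0.02 without the library.

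**Figure D3:**
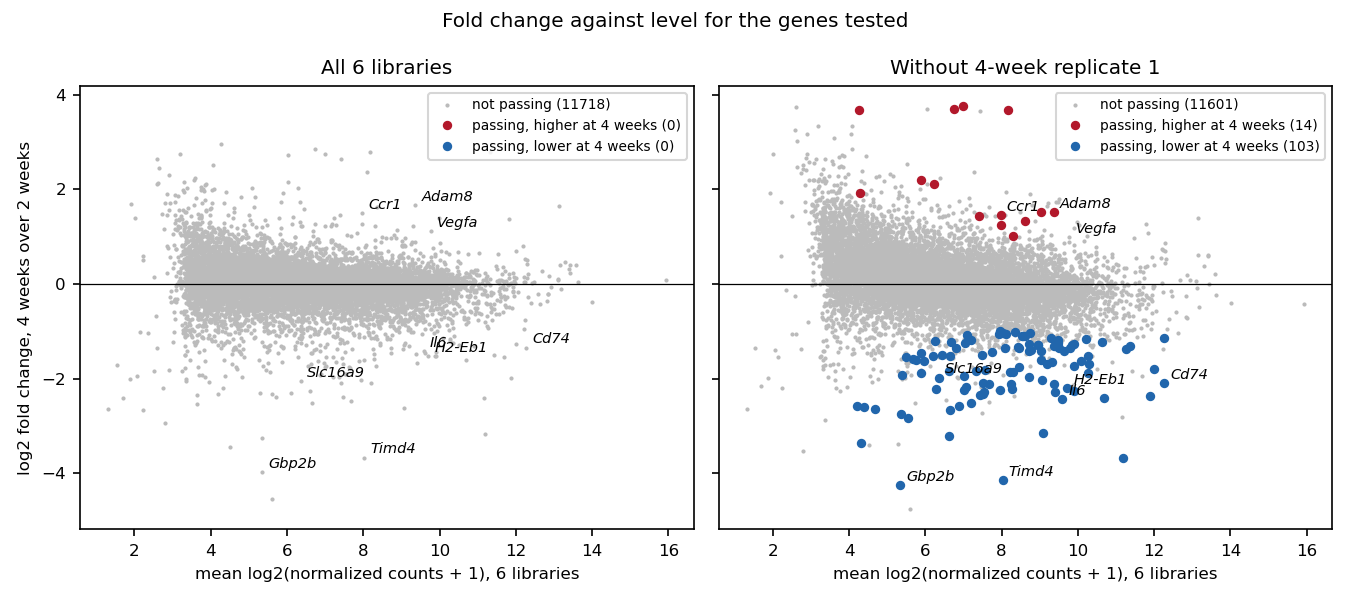
Log2 fold change of 4 over 2 weeks against the mean log2 level for the 11718 genes tested, with all 6 libraries (left, 0 genes passing) and without 4-week replicate 1 (right, 14 higher in red and 103 lower in blue at an adjusted p below 0.05 in limma). Gbp2b and Timd4 lie lowest among the named genes in both panels, and Il6, H2-Eb1 and Cd74 lie further from 0 in the right one.

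The genes that fell divided by where the library left out of the fit lay. At 43 of the 103, 4-week replicate 1 was itself below every 2-week library, at 34 it was within their range and at 26 it was above all of them. Its median distance from the 2-week mean over these genes was −0.09 on the log2 scale. Among all 11718 genes tested, the 4-week libraries other than replicate 1 lay below every 2-week library at 2420, and replicate 1 did as well at 592 of these. The positions of replicate 1 within and above the 2-week range were not counted over all genes, so those counts stand without a background share. Genes in the first group were Timd4, Gbp2b, Slc16a9, Trpm2, a calcium channel gated by ADP-ribose, and Btbd11. Trpm2 fell, with 868, 292 and 210.4 normalized counts at 4 weeks, against 1259, 1039 and 1340.2 at 2 weeks (−2.28 ± 0.21 without 4-week replicate 1; adjusted p in limma 0.0209). Genes in the other groups were Il6, Fpr1, Cd74, Sh3bgrl2, H2-Eb1 and H2-Ab1. Fpr1, the receptor for bacterial formyl peptides on phagocytes, stood at 298, 46.6 and 43.1 normalized counts at 4 weeks, against 222, 159 and 244 at 2 weeks, and fell without 4-week replicate 1 (−2.17 ± 0.23; adjusted p in limma 0.0269). Its level in that library was the highest of the 6.

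Of the 14 genes that rose, 4-week replicate 1 lay above all 2-week libraries at 9, within their range at 2 and below them at 3. Over all 11718 genes tested, 4-week replicates 2 and 3 lay above every 2-week library at 1955, and replicate 1 did as well at 515 of these. The 9 were Ccr1, Adam8, Pf4, Lhfpl2, Eps8, Igf2, F13a1 and a pair of predicted models. F13a1, the A subunit of coagulation factor XIII and a gene of monocyte-derived macrophages, stood at 329, 666 and 728 normalized counts at 4 weeks, against 306, 287 and 239 at 2 weeks (1.33 ± 0.17 without 4-week replicate 1; adjusted p in limma 0.034). Among the genes at which it lay below were Gstm1, a glutathione transferase, and Igfbp2, a carrier of insulin-like growth factors, both of which hepatocytes make. Gstm1 stood at 248, 1203 and 1089 normalized counts at 4 weeks, against 556, 338 and 328 at 2 weeks, so its lowest and highest libraries were both from 4 weeks. Slc4a4, a bicarbonate transporter, stood at 42.4, 131 and 130.4 normalized counts at 4 weeks, against 57.2, 54.2 and 68.4 at 2 weeks and did not pass (adjusted p in limma 0.0585). Predicted models made up 4 of the 14 genes that rose. These were Gm10801 on chromosome 2 and Gm10722, Gm11168 and Gm10718 near the start of chromosome 9, named here after their values were seen. They have near-identical copies, so their reads could be placed at any of them and their levels are uncertain.

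**Figure D4:**
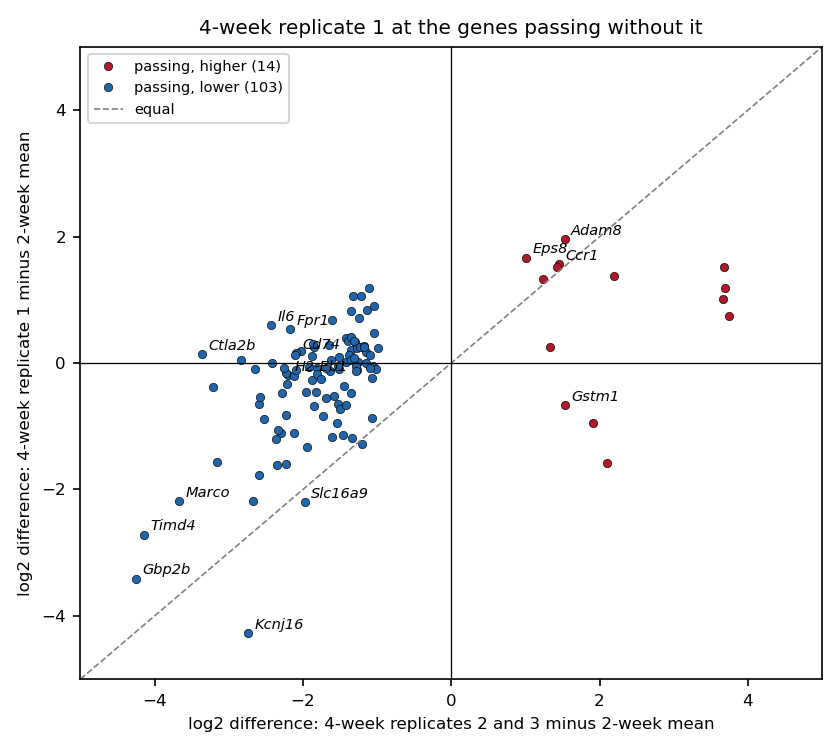
Log2 distance from the 2-week mean in 4-week replicate 1 (vertical) against that of 4-week replicates 2 and 3 (horizontal) for the 14 genes that rose (red) and the 103 that fell (blue) without 4-week replicate 1; the dashed line marks equal values. Timd4, Gbp2b, Marco and Slc16a9 are low in all 4-week libraries, while Il6, Fpr1 and Ctla2b lie above 0 in replicate 1.

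Genes were then followed by their roles, in lists of cell type markers and pathways. Each list is given by its counts and its median, and none was tested as a list. Since whole cell populations were sequenced together, fewer cells of a type and less RNA per cell cannot be told apart in any of them.

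**Figure D5:**
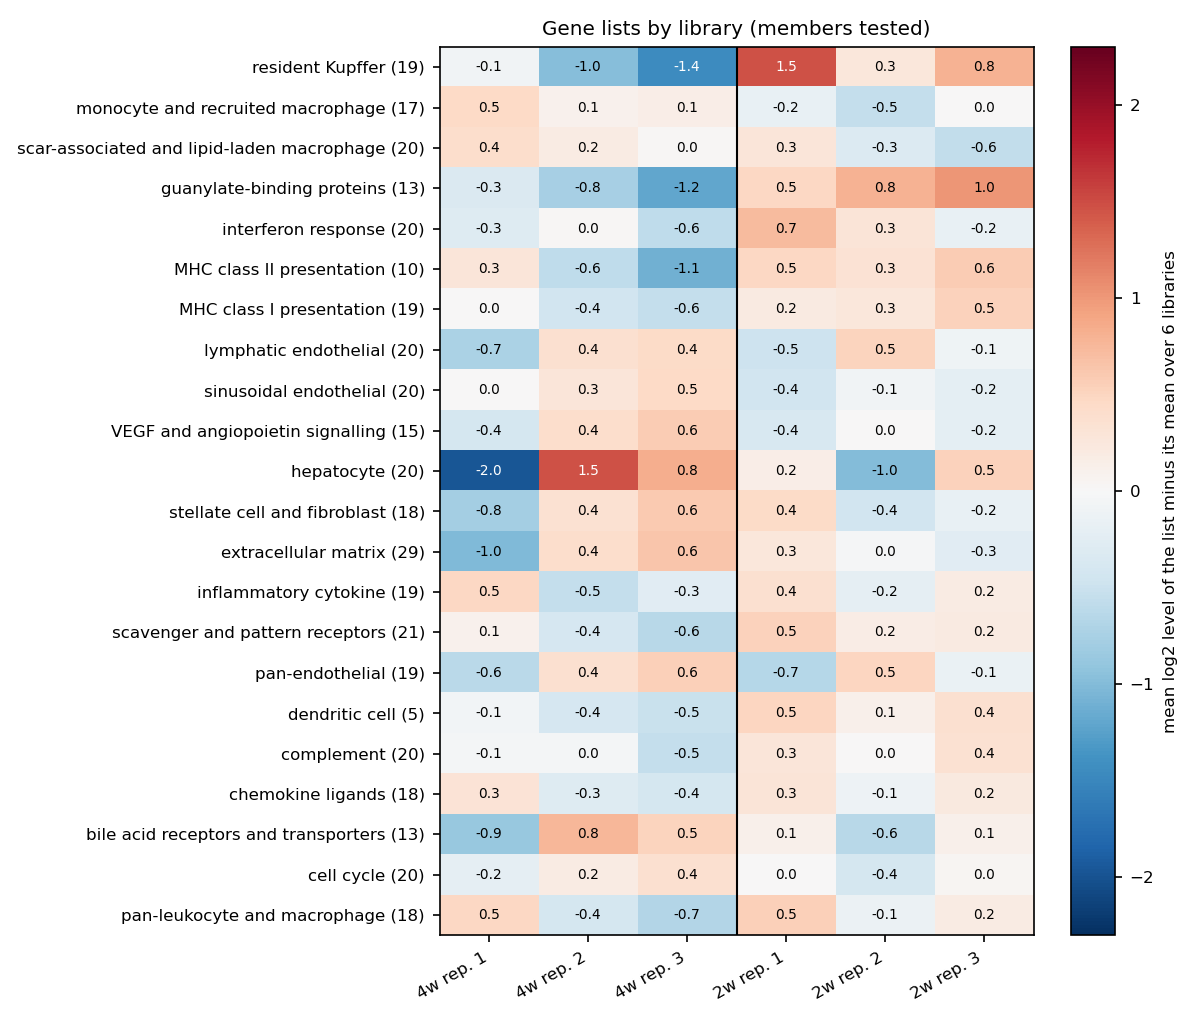
Mean log2 level of each gene list in each library, minus the list's mean over the 6 libraries, with the number of members tested in brackets and the 4-week libraries on the left. The resident Kupffer and guanylate-binding protein lists are lower in all 4-week than in all 2-week libraries, whereas the hepatocyte and extracellular matrix lists are lowest in 4-week replicate 1 and highest in 4-week replicates 2 and 3.

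Resident Kupffer cell genes were lower at 4 weeks than at 2 weeks, with or without 4-week replicate 1. All 19 members were lower in both fits, with a median log2 fold change of −1.59 with 6 libraries and −1.95 without the library. With 6 libraries 0 passed, 15 had an unadjusted p below 0.05 against 3.6% of all genes tested, and 10 had groups that did not overlap, against 5.05%. Without the library 6 fell, against 0.879% of all genes, namely Timd4, C6, Marco, Il18bp, Spic and Cd5l. The list had a mean log2 level of 9.34, 8.44 and 7.98 at 4 weeks, against 10.88, 9.68 and 10.22 at 2 weeks, so 4-week replicate 1 lay between the other 4-week libraries and the lowest 2-week library. Marco, a scavenger receptor for particles and bacteria, stood at 1546, 659 and 460.2 normalized counts at 4 weeks, against 8642, 3258 and 12283 at 2 weeks (−3.67 ± 0.51 without 4-week replicate 1; adjusted p in limma 0.0365). The sham libraries stood at 1296, 3075 and 642, under the 2-week values. C6, a component of the complement lytic complex, stood at 454, 206 and 108 normalized counts at 4 weeks, against 2112, 796 and 1438 at 2 weeks, and fell (−3.16 ± 0.43; adjusted p in limma 0.034). At both genes every 4-week library was below every 2-week library. Il18bp, the secreted inhibitor of interleukin-18, stood at 628, 327 and 246 normalized counts at 4 weeks, against 1177, 719 and 912 at 2 weeks (−1.69 ± 0.24; adjusted p in limma 0.0365). Clec4f, the lectin that marks Kupffer cells, stood at 1733, 1062 and 534 normalized counts at 4 weeks, against 11879, 3428 and 3697 at 2 weeks and at 10027, 13769 and 6850.1 in the sham libraries.

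General macrophage and leukocyte genes were lower too, by less at the median. A list of 18 such genes, added after the data had been seen, had 3 members higher and 15 lower with 6 libraries (median −0.34) and 2 higher and 16 lower without 4-week replicate 1 (median −0.74), and 0 passed in either fit. Its mean log2 level was 10.83, 9.94 and 9.68 at 4 weeks, against 10.89, 10.21 and 10.53 at 2 weeks, with 4-week replicate 1 next to the highest 2-week library. Csf1r, the receptor that macrophages need for survival, stood at 6231, 2691 and 2407 normalized counts at 4 weeks, against 8868, 4707 and 6985 at 2 weeks. Mertk, a receptor for the uptake of dying cells, stood at 2397, 979.6 and 986 normalized counts at 4 weeks, against 2742, 1874 and 2044 at 2 weeks. At both, 4-week replicates 2 and 3 were below all 2-week libraries and replicate 1 was within their range. The part of this shared leukocyte level in the fall of single macrophage and immune genes was not tested.

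Genes of monocytes and recruited macrophages were divided. Of 17 members tested, 12 were higher and 5 lower with 6 libraries (median 0.38, or 0.16 without 2-week replicate 2), and 13 higher and 4 lower without 4-week replicate 1 (median 0.68). Without the library 3 rose, against 0.119% of all genes, and 1 fell, against 0.879%. Those that rose were Ccr1, Adam8 and F13a1. The gene that fell was Plac8, a small cysteine-rich protein of monocytes, at 164, 35.8 and 13.5 normalized counts at 4 weeks, against 196, 165 and 298 at 2 weeks (−3.21 ± 0.42; adjusted p in limma 0.034). The list had a mean log2 level of 8.68, 8.31 and 8.37 at 4 weeks, against 8.05, 7.67 and 8.22 at 2 weeks, and every 4-week library lay above every 2-week library. Genes of scar-associated and lipid-laden macrophages were higher at 17 and lower at 3 of 20 members with 6 libraries (median 0.50), and 0 passed with or without the library. Cd63, a tetraspanin of late endosomes, stood at 695, 665 and 597 normalized counts at 4 weeks, against 352, 388 and 261 at 2 weeks with groups that did not overlap (0.98 ± 0.22; adjusted p in limma 0.427). Fabp5, a fatty acid carrier, stood at 927, 688 and 411 normalized counts at 4 weeks, against 417, 278 and 263 at 2 weeks. The values of Fabp5 touched between the times, with 4-week replicate 3 just under the highest 2-week library. Spp1, which encodes osteopontin, stood at 515, 2074 and 1494 normalized counts at 4 weeks, against 1139.8, 512 and 788 at 2 weeks, and its lowest and highest values in the 4-week group spanned almost the whole comparison. Hmox1, the heme-degrading enzyme, stood at 3172, 1084 and 1684 normalized counts at 4 weeks, against 4465, 2105 and 4185 at 2 weeks, lower in 2 of the 4-week libraries than in any 2-week library.

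The guanylate-binding proteins, interferon-induced GTPases that attack vacuoles of intracellular microbes, were lower at 4 weeks at all 13 members tested in both fits. Their median log2 fold change was −1.38 with 6 libraries and −1.55 without 4-week replicate 1. With 6 libraries 0 passed, 11 had an unadjusted p below 0.05 against 3.6% of all genes tested, and 8 had groups that did not overlap, against 5.05%. Without the library 3 fell, against 0.879% of all genes, namely Gbp2b, Gbp5 and Gbp4. The list had a mean log2 level of 6.66, 6.23 and 5.80 at 4 weeks, against 7.46, 7.80 and 8.01 at 2 weeks. Gbp2b fell furthest, with a log2 fold change of −4.25 ± 0.40 without 4-week replicate 1 (adjusted p in limma 0.0209). Its levels in 4-week replicates 2 and 3, at 8.95 and 6.15 normalized counts, were low. In those libraries 3 reads correspond to 2.69 and 3.69 normalized counts, so the size of the fall is uncertain. The sham libraries stood at 249, 1209 and 182 for Gbp2b. Gbp4 stood at 168, 67.2 and 71.4 normalized counts at 4 weeks, against 212, 406 and 508 at 2 weeks. All its 4-week libraries were below all 2-week libraries (−2.33 ± 0.35 without 4-week replicate 1; adjusted p in limma 0.039). Gbp5 behaved otherwise in 1 library, at 1120.1, 253 and 207 normalized counts at 4 weeks, against 868, 644 and 609.9 at 2 weeks. Its highest level of the 6 was in 4-week replicate 1. Without that library the log2 fold change was −1.61 ± 0.21 (adjusted p in limma 0.034), and with it −0.85 ± 0.58, which did not pass. Irgm1, a GTPase of the related immunity-related family, stood at 91.8, 35.8 and 46.8 normalized counts at 4 weeks, against 91.4, 138 and 144 at 2 weeks and did not pass (adjusted p in limma 0.0508). These genes lie in clusters of similar copies, so reads may have been split among them and the level of each is uncertain.

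The promoters of Gbp2b and Gbp5 are shown because Gbp2b had the furthest fall among the 103 genes, and Gbp5, of the same family, fell without 4-week replicate 1 but was highest in that library. The sequences are from RefSeq (GRCm38.p6), from 250 bases before to 50 bases after the start, at chr3:142594597-142594896, plus strand for Gbp2b and chr3:142496684-142496983, plus strand for Gbp5. Capitals mark the core of the interferon-stimulated response element, GAAANNGAA on either strand, and the interferon-gamma activated site, TTCNNNGAA, which reads the same on both strands.
Gbp2b: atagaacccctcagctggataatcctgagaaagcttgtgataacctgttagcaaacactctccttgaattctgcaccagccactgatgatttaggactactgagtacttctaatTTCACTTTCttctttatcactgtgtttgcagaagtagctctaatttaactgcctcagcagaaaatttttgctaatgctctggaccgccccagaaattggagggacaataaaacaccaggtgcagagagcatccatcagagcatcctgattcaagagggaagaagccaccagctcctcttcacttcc
Gbp5: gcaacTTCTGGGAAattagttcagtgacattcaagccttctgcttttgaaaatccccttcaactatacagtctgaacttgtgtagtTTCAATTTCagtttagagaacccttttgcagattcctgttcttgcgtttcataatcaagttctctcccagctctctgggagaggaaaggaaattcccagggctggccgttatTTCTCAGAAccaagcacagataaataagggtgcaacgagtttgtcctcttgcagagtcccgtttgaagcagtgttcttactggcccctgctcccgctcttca
Gbp2b held 1 match to the first motif, at bases 115 to 123, and 0 to the second. Gbp5 held 1 match to the first, at bases 87 to 95, and 2 to the second, at bases 6 to 14 and 199 to 207. Of 32851 promoters of the same length, 8.56% held the first motif and 8.30% the second. These matches are letters in a window and say nothing of binding in these cells.

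Other interferon-response genes were lower at 18 and higher at 2 of 20 members in both fits, with medians of −0.44 with 6 libraries and −0.47 without 4-week replicate 1. Without the library 2 fell, against 0.879% of all genes, and Irf7 was among them. Irf7, a transcription factor of the type I interferon response, stood at 174, 124 and 59.1 normalized counts at 4 weeks, against 476, 291 and 379.7 at 2 weeks (−2.12 ± 0.34; adjusted p in limma 0.0455). All 4-week libraries, replicate 1 included, were below all 2-week libraries, and the sham libraries stood higher than either, at 606, 1798 and 504. Stat2, which carries type I interferon signals to the nucleus, stood at 294, 182 and 151 normalized counts at 4 weeks, against 238, 287 and 268 at 2 weeks. Oas2, a sensor of double-stranded RNA, stood at 78.5, 55.5 and 25.8 normalized counts at 4 weeks, against 139, 79.7 and 79.9 at 2 weeks. Neither passed, and Stat2 was highest in 4-week replicate 1.

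MHC class II genes, which present peptides to CD4 T cells, were low in 4-week replicates 2 and 3 and near the 2-week level in 4-week replicate 1. Of 10 members tested, 1 was higher and 9 lower with 6 libraries (median −1.18) and 2 higher and 8 lower without 4-week replicate 1 (median −1.60). With 6 libraries 0 passed, 5 had an unadjusted p below 0.05 against 3.6% of all genes tested, and 1 of the 10 had groups that did not overlap, which is near the 5.05% over all genes. Without the library 4 fell, against 0.879% of all genes. These were the chains H2-Eb1, H2-Ab1 and H2-Aa and the invariant chain Cd74, which guards the peptide groove on the way to the endosome. H2-Eb1 (ENSMUSG00000060586, chromosome 17, 34305867 to 34316674 of GRCm38) stood at 1249, 356 and 268 normalized counts at 4 weeks, against 1141, 1476 and 1698 at 2 weeks and at 3674, 5609 and 3536 in the sham libraries. Its level in 4-week replicate 1 was within the 2-week range, while replicates 2 and 3 were below it (−2.20 ± 0.22 without replicate 1; adjusted p in limma 0.0269). H2-Ab1 stood at 2863, 700.2 and 416 normalized counts at 4 weeks, against 2479, 2695 and 3554 at 2 weeks. H2-Aa stood at 1542, 483 and 241 normalized counts at 4 weeks, against 1376, 1617 and 1956 at 2 weeks. Cd74 stood at 8739.8, 2190.1 and 1532 normalized counts at 4 weeks, against 7458, 7449 and 8610.0 at 2 weeks. At these, too, replicates 2 and 3 of 4 weeks were below every 2-week library, and replicate 1 was within the 2-week range at H2-Ab1 and H2-Aa and above it at Cd74. Without it the log2 fold changes were −2.41 ± 0.27 for H2-Ab1, −2.26 ± 0.30 for H2-Aa and −2.09 ± 0.22 for Cd74 (adjusted p in limma 0.0269, 0.034 and 0.0269). With replicate 1 the log2 fold changes were −1.61 ± 0.63, −1.53 ± 0.59 and −1.34 ± 0.60 in the same order, and none passed.

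The promoters of H2-Eb1 and H2-Aa, both of which fell in the same 4-week libraries, are shown next from the same source, at chr17:34305617-34305916, plus strand and chr17:34287774-34288073, minus strand. Capitals mark the core of the Y box, ATTGG on either strand, a short element known from class II promoters.
H2-Eb1: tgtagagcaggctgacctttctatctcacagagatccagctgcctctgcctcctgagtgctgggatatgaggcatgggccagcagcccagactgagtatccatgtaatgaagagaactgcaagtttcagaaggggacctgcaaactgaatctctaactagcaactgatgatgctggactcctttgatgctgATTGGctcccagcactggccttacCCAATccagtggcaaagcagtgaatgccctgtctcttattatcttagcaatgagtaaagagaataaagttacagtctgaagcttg
H2-Aa: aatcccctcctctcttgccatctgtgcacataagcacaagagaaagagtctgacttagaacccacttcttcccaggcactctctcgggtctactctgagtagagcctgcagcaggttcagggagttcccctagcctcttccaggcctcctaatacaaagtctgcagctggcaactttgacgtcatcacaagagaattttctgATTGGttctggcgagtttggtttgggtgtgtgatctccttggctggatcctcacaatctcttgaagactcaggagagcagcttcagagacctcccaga
H2-Eb1 held 2 matches, at bases 192 to 196 and 216 to 220, and H2-Aa held 1, at bases 203 to 207. A motif this short was in 37.4% of the 32851 promoters.

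MHC class I genes were lower at all 19 members in both fits, with medians of −0.73 with 6 libraries and −0.84 without 4-week replicate 1. With 6 libraries 0 passed, 11 had an unadjusted p below 0.05 against 3.6% of all genes tested, and 9 had groups that did not overlap, against 5.05%. Without the library 2 fell, against 0.879% of all genes. H2-M3, which presents formyl peptides, stood at 116, 60.0 and 65.2 normalized counts at 4 weeks, against 159.7, 151 and 174 at 2 weeks (−1.35 ± 0.18; adjusted p in limma 0.034). H2-D1, a classical class I chain, stood at 6345, 2853 and 2904 normalized counts at 4 weeks, against 6357, 5925 and 6839 at 2 weeks (−1.14 ± 0.19; adjusted p in limma 0.0455). H2-M3 was below every 2-week library in all 4-week libraries, and H2-D1 in replicates 2 and 3. H2-T23 stood at 373, 265 and 258 normalized counts at 4 weeks, against 473, 471 and 511 at 2 weeks. H2-K1, the other classical chain listed, stood at 2521, 1557 and 1441 normalized counts at 4 weeks, against 2769, 2785 and 3851 at 2 weeks. Both were lower in all 4-week libraries than in all 2-week libraries, and neither passed. Chains of this family share long stretches of sequence, so the division of reads among them is uncertain. Of 5 dendritic cell markers tested, 4 were lower in both fits, and without 4-week replicate 1 only Clec9a fell, against 0.879% of all genes. Clec9a, the lectin with which cross-presenting dendritic cells bind dead cells, stood at 76.9, 26.0 and 23.4 normalized counts at 4 weeks, against 86.6, 83.0 and 112 at 2 weeks (−1.87 ± 0.24; adjusted p in limma 0.034).

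Inflammatory genes had a mean log2 level of 9.30, 8.30 and 8.58 at 4 weeks, against 9.20, 8.62 and 9.02 at 2 weeks, so the highest and the lowest libraries were both from 4 weeks. Of 19 members tested, 6 were higher and 13 lower with 6 libraries (median −0.29) and 5 higher and 14 lower without 4-week replicate 1 (median −0.73), and 2 fell without it, against 0.879% of all genes. Il6 (ENSMUSG00000025746, chromosome 5, 30013114 to 30019981 of GRCm38), the cytokine that drives the acute-phase response of hepatocytes, stood at 1901, 268 and 201 normalized counts at 4 weeks, against 1395, 1000.1 and 1409 at 2 weeks. The spread within the 4-week group was wider than the whole 2-week range, and the group means were 789.8 ± 963 at 4 weeks and 1268 ± 232 at 2 weeks (mean ± SD of 3 libraries). Without 4-week replicate 1 the log2 fold change was −2.43 ± 0.22 (adjusted p in limma 0.0209), and with it −1.42 ± 0.74. Vcam1, an adhesion molecule for leukocytes, stood at 5652, 1468 and 2255 normalized counts at 4 weeks, against 7781, 5414 and 6114 at 2 weeks, and fell without the library (−1.81 ± 0.26; adjusted p in limma 0.0365). Il1b, a cytokine of activated macrophages, stood at 7312, 1721 and 1928 normalized counts at 4 weeks, against 4066, 3324 and 4423 at 2 weeks. Nlrp3, the sensor of the inflammasome that releases it, stood at 2509.5, 819 and 995 normalized counts at 4 weeks, against 2137, 1518 and 2014 at 2 weeks. At both, 4-week replicate 1 was the highest of the 6 libraries, and neither passed.

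The promoter of Il6 (chr5:30012864-30013163, plus strand) is shown because Il6 had the lowest p of the inflammatory genes without 4-week replicate 1 and the opposite direction in that library. Capitals are on the core of the kappa B site, GGGANTTTC on either strand.
Il6: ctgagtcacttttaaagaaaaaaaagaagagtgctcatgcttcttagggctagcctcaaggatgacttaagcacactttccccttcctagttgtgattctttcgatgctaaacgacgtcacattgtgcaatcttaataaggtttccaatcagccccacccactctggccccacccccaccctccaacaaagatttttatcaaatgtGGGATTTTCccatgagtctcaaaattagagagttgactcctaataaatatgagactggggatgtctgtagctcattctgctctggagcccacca
The match lay at bases 207 to 215, and 1.11% of the 32851 promoters held the motif.

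Scavenger and pattern receptors were lower at 17 of 21 members with 6 libraries (median −0.48) and at 18 without 4-week replicate 1 (median −0.78), and 2 fell without it, against 0.879% of all genes. These were Marco, which the Kupffer list also holds, and Colec12. Colec12, a collectin that takes up oxidized lipoprotein, stood at 235, 213 and 214 normalized counts at 4 weeks, against 669.5, 524 and 447 at 2 weeks. Its 4-week values were nearly equal in all 3 libraries. The log2 fold change was −1.33 ± 0.20 without 4-week replicate 1 (adjusted p in limma 0.0418) and −1.29 ± 0.22 with it (adjusted p in limma 0.253). Tlr12, a receptor for profilin, stood at 10.99, 19.7 and 11.1 normalized counts at 4 weeks, against 71.3, 51.6 and 46.0 at 2 weeks. Scarb2, a lysosomal membrane receptor, stood at 1736, 771 and 738 normalized counts at 4 weeks, against 1749, 1319 and 1518 at 2 weeks. Neither passed, and Tlr12 was lower in all 4-week libraries than in all 2-week libraries. Complement genes were lower at 13 of 20 members in both fits, with medians of −0.48 and −0.54, and 2, C6 and Cfp, fell without 4-week replicate 1, against 0.879% of all genes. Cfp, which encodes the complement stabilizer properdin, stood at 1831, 633 and 564 normalized counts at 4 weeks, against 2072, 1258 and 1926 at 2 weeks (−1.52 ± 0.24; adjusted p in limma 0.0455). Chemokine ligands had 10 of 18 members higher with 6 libraries and 5 without 4-week replicate 1, and 0 passed in either fit. Cxcl9, an interferon-gamma induced chemokine for T cells, stood at 76.1, 10.7 and 4.92 normalized counts at 4 weeks, against 38.3, 92.1 and 178 at 2 weeks, with 4-week replicate 1 within the 2-week range and the other 4-week libraries below it.

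Lymphatic endothelial genes were higher at 13 and lower at 7 of 20 members with 6 libraries (median 0.08, or −0.17 without 2-week replicate 1), and higher at 18 and lower at 2 without 4-week replicate 1 (median 0.58), and 0 passed in either fit. The list had a mean log2 level of 8.31, 9.41 and 9.49 at 4 weeks, against 8.56, 9.55 and 8.94 at 2 weeks, with 4-week replicate 1 the lowest library and 2-week replicate 1 the next. Pan-endothelial genes had a mean log2 level of 7.85, 8.83 and 9.02 at 4 weeks, against 7.81, 8.96 and 8.32 at 2 weeks, with the same libraries lowest and 0 of 19 passing. Vwf, the von Willebrand factor, stood at 84.0, 136 and 224 normalized counts at 4 weeks, against 106, 82.3 and 48.7 at 2 weeks. Itga9, the integrin chain of lymphatic valves, stood at 2093, 1085 and 861 normalized counts at 4 weeks, against 2253, 1692 and 1683 at 2 weeks. Stab1, a scavenger receptor of lymphatic and sinusoidal endothelium, stood at 3683, 8056 and 7274 normalized counts at 4 weeks, against 3315, 5621 and 3982 at 2 weeks. Replicates 2 and 3 of 4 weeks were below every 2-week library at Itga9 and above at Stab1. Itga9 and Stab1 did not pass (adjusted p in limma 0.0766 and 0.15 without 4-week replicate 1).

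Sinusoidal endothelial genes were higher at 4 weeks at 15 and lower at 5 of 20 members with 6 libraries (median 0.57, or 0.17 without 2-week replicate 1). On the higher side 7 had groups that did not overlap, against 4.39% of all genes, and 0 passed with or without 4-week replicate 1. Plxnc1 stood at 109, 127 and 150.1 normalized counts at 4 weeks, against 66.6, 49.0 and 40.6 at 2 weeks. Adam23, a membrane protein of the disintegrin family, stood at 58.1, 40.3 and 97.2 normalized counts at 4 weeks, against 21.2, 24.2 and 13.5 at 2 weeks. Oit3 stood at 29.8, 24.2 and 27.1 normalized counts at 4 weeks, against 11.2, 6.53 and 7.45 at 2 weeks. All 4-week libraries were above all 2-week libraries at these genes. Dnase1l3, a secreted nuclease, went the other way, at 49.5, 18.8 and 25.8 normalized counts at 4 weeks, against 70.7, 56.2 and 94.8 at 2 weeks (−1.29 ± 0.38; adjusted p in limma 0.637). Ligands and receptors of the VEGF and angiopoietin families were higher at 12 of 15 members with 6 libraries (median 0.24, or 0.05 without 4-week replicate 2) and at all 15 without 4-week replicate 1 (median 0.59), and 0 passed in either fit. Flt1, a receptor of Vegfa, stood at 83.2, 62.7 and 119 normalized counts at 4 weeks, against 25.3, 41.8 and 48.1 at 2 weeks. Angpt2, a ligand of the receptor Tie2, stood at 619, 816 and 909 normalized counts at 4 weeks, against 189, 525 and 598 at 2 weeks. As at Vegfa, every 4-week library was above every 2-week library at both genes. Ccbe1, which aids the maturation of VEGF-C, stood at 6.28, 15.2 and 20.9 normalized counts at 4 weeks, against 6.48, 5.88 and 10.8 at 2 weeks, not far above the floor of 3 reads, which was 1.77 to 3.69 normalized counts in these libraries.

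Hepatocyte genes varied more among the 4-week libraries than between the times. Of 20 members, 15 were higher and 5 lower with 6 libraries (median 0.29) and 20 higher and 0 lower without 4-week replicate 1 (median 1.29), and 0 passed in either fit. The list had a mean log2 level of 6.50, 9.93 and 9.30 at 4 weeks, against 8.62, 7.48 and 9.0 at 2 weeks. At 11 of the 20 genes 4-week replicate 1 lay more than 2-fold below every other library, against 4.03% of all genes tested. Cyp3a11, a drug-metabolizing cytochrome, stood at 24.3, 469 and 377 normalized counts at 4 weeks, against 122.6, 67.3 and 202 at 2 weeks. Apoa1, the main protein of high-density lipoprotein, stood at 200.2, 2094 and 1724 normalized counts at 4 weeks, against 791, 293 and 793 at 2 weeks. Hnf4a, a transcription factor of hepatocytes, stood at 25.9, 166 and 121 normalized counts at 4 weeks, against 67.8, 51.0 and 85.3 at 2 weeks. At all 3 genes 4-week replicates 2 and 3 were above, and replicate 1 below, every 2-week library. Bile acid receptors and transporters were higher at 8 of 13 members with 6 libraries and at 11 without 4-week replicate 1, and 0 passed. Abcb11, the bile salt export pump of hepatocytes, stood at 7.06, 78.8 and 60.3 normalized counts at 4 weeks, against 36.5, 13.7 and 20.3 at 2 weeks. Abcc3, a pump that returns bile acids to the blood, stood at 1123, 702 and 685 normalized counts at 4 weeks, against 2239, 981 and 1166 at 2 weeks. Abcb11 had the pattern of the hepatocyte list, and Abcc3 was lower in 4-week replicates 2 and 3 than in any 2-week library.

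Stellate cell and matrix genes divided the 4-week libraries in the same way. Of 18 stellate cell and fibroblast genes, 9 were higher and 9 lower with 6 libraries (median −0.02) and all 18 higher without 4-week replicate 1 (median 0.42). Of 29 extracellular matrix genes, 14 were higher and 15 lower with 6 libraries (median −0.01) and 28 higher and 1 lower without it (median 0.51), and 0 of either list passed in either fit. Fn1, which encodes fibronectin, stood at 1446, 4816 and 4993 normalized counts at 4 weeks, against 2235, 2115 and 3332 at 2 weeks. Bgn, a small matrix proteoglycan, stood at 209.6, 552 and 767 normalized counts at 4 weeks, against 428, 367 and 330.3 at 2 weeks. Dcn, its relative decorin, stood at 96.6, 359 and 204 normalized counts at 4 weeks, against 157, 128 and 127 at 2 weeks. Replicates 2 and 3 of 4 weeks were above every 2-week library at these 3 genes and replicate 1 was below. Most members did not separate so. Replicates 2 and 3 were above every 2-week library at 3 of the 18 stellate and 6 of the 29 matrix genes. Over all 11718 genes tested this held at 1955, a like share. Of 20 cell cycle genes, 16 were higher with 6 libraries (median 0.22) and 17 without 4-week replicate 1 (median 0.30), and 0 passed. Mki67, a marker of dividing cells, stood at 1571, 437 and 808 normalized counts at 4 weeks, against 1022, 736 and 1188 at 2 weeks. Cenpe, a kinetochore motor, stood at 41.6, 51.0 and 49.2 normalized counts at 4 weeks, against 32.4, 17.6 and 32.5 at 2 weeks. The 4-week and 2-week values of Mki67 overlapped, and all values of Cenpe at 4 weeks were above those at 2 weeks.

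The share of normalized counts on mitochondrially encoded genes was 0.597%, 0.788% and 0.875% at 4 weeks, against 0.689%, 0.681% and 0.697% at 2 weeks. It was lowest in 4-week replicate 1 and highest in the other 4-week libraries, and its part in the differences was not tested. Nothing in the labels gives a date, a lane or another batch by which 4-week replicate 1 could be set apart, so a technical difference and a difference between mice cannot be told apart for this library. The same holds for 4-week replicates 2 and 3, which had the fewest reads of the 6 libraries but the most genes at a common depth. They also lay far from the 2-week libraries on the first axis. The calls without replicate 1 rest on these libraries for the 4-week side.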

How the data were processed

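RNA of cells sorted from mouse livers was sequenced in 9 samples, and the 6 libraries of the ligated mice, 3 at 4 weeks and 3 at 2 weeks, were compared. The authors deposited 1 table of normalized counts (a signal, in which each library's gene counts were divided by its own size factor) for 21936 protein-coding genes, with 1 column per library. The submitters' processing notes name Trim Galore 0.5.0, HISAT2 2.1.0, StringTie 1.3.3b, DESeq2 1.22.1 and the build mm10. Whether reads were counted by strand is not given in the sources used here, so genes that overlap on opposite strands cannot be told apart. All 197424 values were whole multiples of 1 read within 0.001 (100.0%), and whole reads were recovered from them for the count tests.

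Genes with a mean of at least 10 over the 6 libraries were tested with limma 3.58.1 in R 4.3.3 on log2(value + 1), with a trend in the prior variance and Benjamini-Hochberg adjustment, so fold changes understate the change of low genes. The fits had 4 residual degrees of freedom, or 3 without 4-week replicate 1. edgeR 4.0.16 and DESeq2 1.42.0 on the recovered reads, other pseudocounts (0.5 and 5), filters, scalings, weights, a replicate block, a fit with the sham libraries and leaving out each library were the alternatives.

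Groups and replicate numbers came from the labels, and p-values measure the spread between these libraries. Within a time, libraries differed by more than sampling noise (chi-square per degree of freedom 7.26 to 50.9). The comparison and all gene lists were chosen with earlier results of these data known. Genes were named by fixed rules. These were the 10 lowest p in each direction in either fit and the 10 widest gaps of 4-week replicate 1 in each direction, among genes with a mean of at least 50 that are not predicted models, up to 4 members with the lowest p of each list described, and a set of fixed markers. The general leukocyte list was added after the data were seen. Gene positions are from GENCODE M21, where 21817 of the 21936 identifiers were found, and promoters are from RefSeq, both of GRCm38. Results of a few named genes are not reported here. For Cd74 and Colec12 no sequence is shown, and H2-Ab1 has no sequence here.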

Additional observations from a re-analysis of the deposited data

How the results depend on the processing

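With all 6 libraries, the counts of 0 genes higher and 0 lower held in limma with either pseudocount, a mean of at least 50, TMM scaling, quantile normalization, the sham libraries in the fit, and in edgeR. Library quality weights, which set 4-week replicate 1 to 0.197 and the others to 0.834 to 2.53, gave 46 higher and 202 lower, DESeq2 gave 31 and 67, and no filter gave 3 lower. Leaving out each library in turn gave 0 to 14 higher and 0 to 103 lower, with every call from leaving out 4-week replicate 1.

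Without 4-week replicate 1, the 14 and 103 were 14 and 103 at a pseudocount of 0.5, 20 and 105 at 5, 16 and 89 after quantile normalization, 8 and 78 with TMM scaling, 7 and 92 at a mean of at least 50, 76 and 329 with quality weights, and 218 and 467 in DESeq2. No filter, edgeR and the fit with the sham libraries gave 0 and 0. Leaving out a further library gave 0 to 141 higher and 0 to 389 lower, where a lone 4-week library was assumed to vary like the 2-week libraries. The causes were not tested.

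Libraries that share a replicate number showed no clear sign of pairing, which so few correlations cannot exclude. Deviations of same-numbered libraries correlated at −0.0071, −0.0868 and 0.0327 across genes, and those of other pairs at −0.0655 to 0.0762. With the replicate block, 0 genes were higher and 1 lower with 6 libraries, and 8 higher and 9 lower without 4-week replicate 1.

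Over the alternatives with 6 libraries, the list medians stayed below 0 for Kupffer genes (−1.95 to −1.17), guanylate-binding proteins (−1.66 to −1.08), MHC class II (−1.60 to −0.79), MHC class I (−0.88 to −0.61), interferon response (−0.73 to −0.38), dendritic cells (−0.80 to −0.29), scavenger receptors (−0.78 to −0.32), complement (−0.59 to −0.21), general leukocyte genes (−0.74 to −0.13) and inflammatory genes (−0.73 to −0.03). They stayed above 0 for scar-associated macrophages (0.36 to 0.68), monocytes (0.16 to 0.68), sinusoidal endothelium (0.17 to 0.82), the VEGF family (0.05 to 0.59) and cell cycle (0.07 to 0.30). They crossed 0 for lymphatic (−0.17 to 0.58) and pan-endothelial genes (−0.15 to 0.67), hepatocytes (−0.49 to 1.29), bile acid genes (−0.38 to 0.97), stellate cells (−0.40 to 0.42), matrix (−0.29 to 0.51) and chemokine ligands (−0.31 to 0.19). Directions reversed only with a library left out of the 6, for genes that did not pass. Without 4-week replicate 2 the log2 fold change was −0.29 for Cyp3a11, −0.24 for Hnf4a, −0.40 for Serpina1b, −0.0287 for Egfl7, −0.32 for Cxcl12, −0.0331 for Abcb11, −0.086 for Abcb4 and 0.23 for Mki67. Without 4-week replicate 3 it was −0.13 for Cyp3a11, −0.013 for Hnf4a, −0.078 for Serpina1b, −0.13 for Bgn, −0.091 for Egfl7 and 0.018 for Ccl6. Without 2-week replicate 1 it was −0.067 for Egfl7 and 0.0063 for Ccl6, and without 2-week replicate 2 it was −0.12 for Serpina1b. Without 4-week replicate 1 it was furthest the other way, at 1.82 for Cyp3a11, 1.08 for Hnf4a, 1.46 for Serpina1b, 0.80 for Bgn, 0.75 for Egfl7, −0.67 for Ccl6, 0.58 for Cxcl12, 1.62 for Abcb11, 1.25 for Abcb4 and −0.70 for Mki67. Of the named genes' values with 6 libraries, 1497 kept their direction and side of the threshold, 112 passed only under the alternative and 17 reversed. Without 4-week replicate 1 these counts were 1177, 101 and 0, and 243 no longer passed. Depth limits low genes, since 3 reads correspond to 1.77 to 3.69 normalized counts, and 4 or 3 residual degrees of freedom limit every test.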
